A study of Mus musculus with 11 samples.

Results

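Untreated mouse bone marrow cells carrying BCR/ABL, the fusion tyrosine kinase of chronic myeloid leukaemia, were compared with cells labelled as vector control. The comparison set 2 BCR/ABL libraries against 1 vector library, of 11 libraries in the series. It covered the 10804 genes that reached 1 FPKM (a read density per kilobase of transcript, adjusted for sequencing depth) in at least 2 of these 3 libraries, out of 23444 rows in the deposited table. With a lone vector library there is no replicate check on that side, so no p-value is given. The measure of error is how far the 2 BCR/ABL libraries lay apart.

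The protocols name wild-type mice and ROSACreERT2c-Fosfl/fl/Dusp1-/- mice, all C57BL/6. The 3 libraries compared carry no deletion label and were taken as wild type, and 2 libraries labelled c-Fos-/-Dusp1-/- enter only where all libraries are shown. Cells were selected for Kit with CD117 beads and cultured with stem cell factor, IL-3, IL-6 and FLT3, so every library, the vector control included, shares that selection and those cytokines. BCR/ABL was introduced by a retronectin-assisted virus that also encodes a yellow fluorescent protein, and positive cells were sorted. The vector library is the reference without BCR/ABL in a series about drugs against FOS and Dusp1. How the vector cells were infected or sorted is not stated in the sources used here, so the fusion kinase and any difference in handling cannot be told apart. Nothing in the labels says that the BCR/ABL duplicates came from different animals, and their spread may be technical.

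BCR/ABL arises when the start of BCR is joined to the kinase ABL1, which leaves the kinase permanently active. It signals through STAT5, through RAS and ERK, and through PI3 kinase, and it can replace cytokine signals in myeloid progenitors. In chronic myeloid leukaemia it drives an excess of granulocytes and their precursors. STAT5 switches on its own brakes, the CIS and SOCS proteins, while ERK switches on immediate early genes such as Fos and Egr1 and the phosphatases that end the signal.

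Levels below are in FPKM, written as the vector library against the first and second BCR/ABL library. Differences are on the log2(FPKM + 1) scale, BCR/ABL minus vector, and are the smaller of the 2 differences. The added 1 FPKM shrinks differences of genes with low levels. A gene was called higher or lower when both BCR/ABL libraries differed from the vector library by at least 1 on this scale in the same direction and the higher group averaged at least 5 FPKM.

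By this rule 380 genes (3.52%) were higher and 521 genes (4.82%) were lower in both BCR/ABL libraries, 8.34% in either direction. Between the 2 BCR/ABL libraries 19 genes (0.176%) differed by the same fold and level. The median absolute difference between those libraries was 0.123 and the 95th percentile 0.394. Of the 901 called genes, 896 differed from the vector by more than the widest gap seen in any of the 4 replicate pairs of the series. The rule asks for a difference of at least 1, so this was likely beforehand. It also measures no spread of the lone vector library. Of the genes called higher, 122 were higher by at least 2, and of those called lower, 79 were lower by at least 2. Predicted genes, clone names and short RNA genes account for 25 of the genes called higher and 22 of those called lower, and are counted without being named, except BC100530, a neighbour of the stefin A genes. The threshold has many genes near it: among genes with at least 5 FPKM, 71 were higher by 1 to 1.1 and 96 by 0.9 to 1, while 77 were lower by 1 to 1.1 and 110 by 0.9 to 1.

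The split between the directions depends on scaling. The deposited values summed to 459559 FPKM for the vector and to 527875 and 489904 for the BCR/ABL libraries. After scaling all 3 to the same total, 281 genes were higher and 708 lower, so that 28.4% of calls were higher in place of 42.2%. That scaling moved the median difference of all genes from 0.0049 to -0.125. Of the 218 called genes that the naming rule takes, 20 no longer reached the threshold under it. None turned direction, which a shift of that size could hardly bring about in a gene called by the rule.

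**Figure D1:**
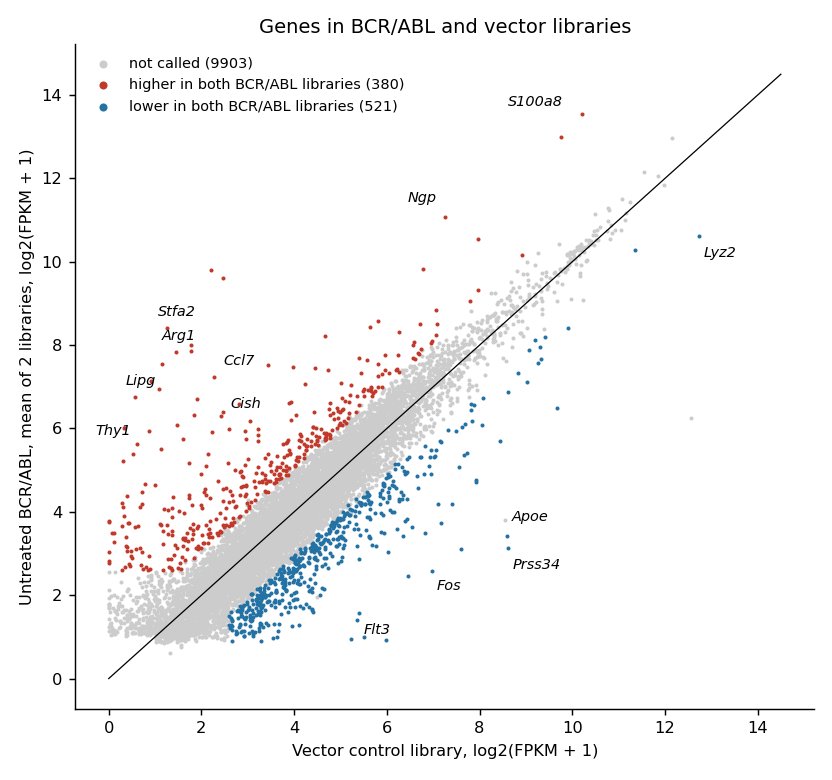
Level of each of the 10804 genes in the vector library (x axis) and averaged over the 2 BCR/ABL libraries (y axis), both as log2(FPKM + 1); the line marks equal levels. The 380 genes called higher are red, the 521 called lower are blue, and a few genes of the text are named.

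The filter does not treat the directions alike. A gene seen in the BCR/ABL cells and nearly absent from the vector library passes it through 2 libraries, and 48 genes called higher were under 1 FPKM in the vector. A gene present in the vector library and under 1 FPKM in both BCR/ABL libraries fails it, and 42 rows at 5 FPKM or more in the vector were left out in this way. Counts of list members below are therefore of genes that passed the filter, not of all listed genes. They are to be read beside the shares over all genes, 3.52% higher and 4.82% lower.

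As a check on the label, Kit was at 34.5 FPKM against 11.5 and 11.7 FPKM, so the gene used for selection was present in all 3 libraries and lower with BCR/ABL. Cd34, another progenitor surface gene, was at 66.2 FPKM against 26.7 and 29.7. The T cell genes Cd3e, Cd3d and Cd3g were at most 0.0593 FPKM, and Col1a1 and Col3a1, collagens of stromal cells, were at most 0.148 FPKM. Transcripts of mature myeloid cells, by contrast, were abundant, with Lyz2 (lysozyme) at 6787 FPKM against 1575 and 1567 FPKM. These are bulk measurements, in which fewer cells of a type and less RNA per cell cannot be told apart.

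Bcr and Abl1, the mouse genes whose human counterparts form the fusion, were not called. Bcr was at 7.05 FPKM against 12.9 and 10.8 FPKM and Abl1 at 18.0 FPKM against 24.6 and 24.3, so that both were above the vector library in both BCR/ABL libraries, by 0.55 and 0.41. Whether reads from the introduced fusion entered these values was not tested. Among genes of proteins that carry the kinase's signal, 1 of 27 measured adaptors and effectors was higher and 2 were lower. Their median difference was -0.23. Over all genes 3.52% were higher and 4.82% lower, so these few calls do not set the list apart. Dok2, an adaptor that dampens tyrosine kinase signalling, was higher at 13.1 FPKM against 35.7 and 27.4 FPKM, and this call is lost when libraries are scaled to the same total. Fgr, a SRC-family kinase of myeloid cells, was lower at 35.3 FPKM against 14.7 and 13.6 FPKM. Stat5b was lower at 30.9 FPKM against 14.1 and 12.5 FPKM, and its close relative Stat5a, at 17.6 FPKM against 16.2 and 12.7, did not reach the threshold.

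Among STAT5 target genes 8 of 19 were called higher and 2 lower, with a median difference of 0.81 beside 0.0049 over all genes. Cish, which encodes the feedback protein CIS, was at 4.35 FPKM against 88.3 and 68.7 FPKM, higher by 3.70. Both BCR/ABL values were far above the vector value, although they lay further apart than those of most genes. Socs1, an inhibitor of JAK kinases, was at 7.24 FPKM against 80.1 and 63.9 FPKM, higher by 2.98, and Socs2, a brake on growth hormone and cytokine receptors, was at 3.21 FPKM against 21.7 and 22.9, higher by 2.43. The promoter region of Cish is shown because its start holds a pair of matches to TTCNNNGAA, the letters that STAT5 recognises. It is the RefSeq window of GRCm38.p6, chr9:107296409-107296708 on the plus strand, with both matches in capitals.
Cish: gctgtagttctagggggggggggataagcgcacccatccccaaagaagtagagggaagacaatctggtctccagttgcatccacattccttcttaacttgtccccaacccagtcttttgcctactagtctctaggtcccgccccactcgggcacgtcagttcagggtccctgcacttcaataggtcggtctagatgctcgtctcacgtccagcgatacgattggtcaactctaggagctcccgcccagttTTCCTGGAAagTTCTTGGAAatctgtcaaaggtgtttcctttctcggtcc
The matches begin at bases 1 and 12 counted from the annotated start. Of 5 STAT5 target genes called higher that have such a window, Cish alone held these letters, while 8.53% of the 8237 measured genes with a window and 8.3% of all 32851 windows did, on either strand. Bcl6, a transcriptional repressor that was lower, held 3 matches, so the letters stood beside genes of both directions.

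The other STAT5 targets called higher have roles in growth and survival. Il2ra, the alpha chain of the interleukin 2 receptor, was at 0.297 FPKM against 7.63 and 8.52 FPKM, and Id1, an inhibitor of basic helix-loop-helix factors, at 14.3 FPKM against 82.5 and 64.4. Lif, a cytokine that signals through gp130, was at 4.49 FPKM against 19.0 and 17.3 FPKM. Ccnd2, the cyclin D2 gene, was at 29.7 FPKM against 84.4 and 84.6 FPKM, and Bcl2l1, which encodes the survival protein BCL-XL, at 11.97 FPKM against 35.2 and 30.6. In each of these genes the gap between the BCR/ABL values was smaller than their distance from the vector value, which the call rule makes likely. Ccnd1 (cyclin D1) was called lower at 39.1 FPKM against 12.7 and 11.5 FPKM, as was Bcl6 at 12.2 FPKM against 1.98 and 1.88 FPKM. Pim1, a survival kinase and a textbook STAT5 target, was not called, and its vector value lay between the BCR/ABL values at 143 FPKM against 153 and 135 FPKM. Socs3, a brake on gp130 signalling, was at 45.3 FPKM against 23.9 and 19.8 FPKM, below the vector in both libraries without reaching the threshold.

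Of 25 immediate early and AP-1 genes 9 were lower with BCR/ABL, 0 higher and 16 not called, with a median difference of -0.69. Fos, an AP-1 subunit and the gene of the study's deletion, was at 125 FPKM against 5.09 and 4.81 FPKM, a difference of -4.37, which put it among the 15 named genes furthest below the vector library. Egr1, a zinc finger factor induced by growth signals, was at 74.0 FPKM against 11.1 and 11.2 FPKM, and Zfp36, which binds and destabilises cytokine mRNAs, was at 212 FPKM against 41.8 and 41.7. The vector library was above both BCR/ABL libraries for each of these genes, as the call rule requires. Klf4, Nr4a1, Junb, Ier2, Btg2 and Jun were also lower, with differences of -1.95, -1.51, -1.30, -1.31, -1.16 and -1.14. Not every AP-1 or early gene shared this: Jund was at 22.0 FPKM against 28.1 and 20.4 FPKM, Atf3 at 38.9 FPKM against 32.1 and 30.8 and Klf6 at 46.6 FPKM against 38.9 and 41.0, and none of these reached the threshold. Batf3, a partner of JUN proteins in dendritic cells, was above the vector at 1.20 FPKM against 4.88 and 3.73 FPKM but under the level the rule asks for.

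Of 17 genes that report or restrain ERK signalling, 2 were called higher and 1 lower, beside 3.52% and 4.82% of all genes. These few calls do not set the list apart, and the sign of its median of 0.08 turns with scaling. Dusp1, the phosphatase that is the study's other target, was at 16.9 FPKM against 8.22 and 8.46 FPKM, below the vector in both BCR/ABL libraries and short of the threshold. Dusp2, a nuclear relative, was lower at 15.5 FPKM against 5.07 and 4.84 FPKM. Among feedback inhibitors of ERK signalling, Dusp6 was at 21.5 FPKM against 19.0 and 17.9 FPKM and Spry2 at 3.85 FPKM against 3.02 and 3.49 FPKM, both close to the vector library. Phlda1 was higher at 1.17 FPKM against 13.3 and 11.1 FPKM, and Rasa2, a RAS-inactivating protein, at 4.24 FPKM against 9.75 and 11.03; Rasa2 loses its call under equal totals.

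**Figure D2:**
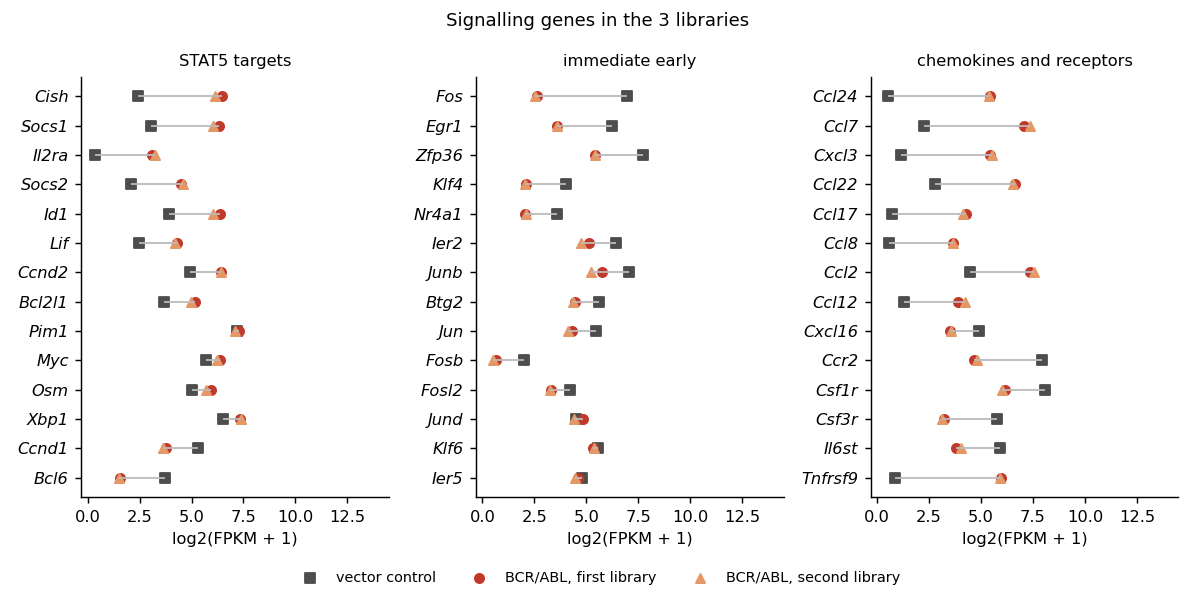
Levels of STAT5 target genes, immediate early genes, and chemokine and receptor genes in the vector library (square) and in the first (circle) and second (triangle) BCR/ABL library, as log2(FPKM + 1). Cish, Socs1 and Ccl7 lie to the right of their vector values with BCR/ABL, and Fos, Egr1, Bcl6 and Csf3r to the left.

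Interferon response genes were mostly higher. Of 28 measured genes 17 were called higher and 1 lower, 27 lay above the vector on average, and the median difference was 1.49. Iigp1, an immunity-related GTPase, was at 1.00 FPKM against 22.99 and 24.9 FPKM, higher by 3.58. Usp18, which removes ISG15 from proteins and restrains the interferon receptor, was at 8.25 FPKM against 63.0 and 62.9 FPKM, and Isg15 itself, a ubiquitin-like modifier, was at 25.5 FPKM against 186 and 152. Among antiviral effectors, Rsad2 (viperin) was at 8.29 FPKM against 55.0 and 58.3 FPKM and Ifit1 at 6.15 FPKM against 28.1 and 32.3 FPKM. For all of these the vector value was below either BCR/ABL value, as the call rule requires. The regulators were mixed. Irf7, the factor that amplifies type I interferon, was higher at 26.5 FPKM against 105 and 89.1 FPKM. Irf1 was at 39.5 FPKM against 53.4 and 47.5 FPKM and was not called. Irf8, which directs monocyte and dendritic cell development, was the exception at 83.3 FPKM against 12.9 and 12.5 FPKM.

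The promoters of 3 of these genes are shown because letters that interferon-activated factors recognise, GAAANNGAAA on either strand, lie close to their starts. The motif was searched after the gene values had been seen. Each is the RefSeq window of GRCm38.p6 running from 250 bases before to 50 bases after the annotated start, with matches in capitals, at chr4:156200769-156201068 on the minus strand for Isg15, chr19:34640639-34640938 on the plus strand for Ifit1 and chr3:142620413-142620712 on the plus strand for Gbp2.
Isg15: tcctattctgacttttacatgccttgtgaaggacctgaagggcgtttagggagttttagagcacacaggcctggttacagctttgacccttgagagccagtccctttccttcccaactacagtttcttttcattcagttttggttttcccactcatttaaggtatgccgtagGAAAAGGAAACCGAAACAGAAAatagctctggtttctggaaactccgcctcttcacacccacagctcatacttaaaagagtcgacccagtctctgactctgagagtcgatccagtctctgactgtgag
Ifit1: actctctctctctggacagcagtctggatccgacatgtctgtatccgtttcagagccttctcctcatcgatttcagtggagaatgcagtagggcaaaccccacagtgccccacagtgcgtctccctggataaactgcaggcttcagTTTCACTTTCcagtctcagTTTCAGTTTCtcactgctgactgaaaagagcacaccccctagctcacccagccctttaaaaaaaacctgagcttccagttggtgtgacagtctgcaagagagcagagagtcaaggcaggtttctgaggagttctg
Gbp2: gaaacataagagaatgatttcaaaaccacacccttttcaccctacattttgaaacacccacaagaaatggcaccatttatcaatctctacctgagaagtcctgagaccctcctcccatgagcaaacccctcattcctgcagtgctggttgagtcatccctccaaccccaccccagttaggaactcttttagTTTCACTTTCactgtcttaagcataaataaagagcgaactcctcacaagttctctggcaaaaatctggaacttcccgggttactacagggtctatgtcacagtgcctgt
Isg15 held 3 overlapping matches, Ifit1 held 2 and Gbp2 held 1. The letters were in 8 of the 12 interferon genes called higher that have a window (66.7%) and in 5 of the 8 that were not called (62.5%). They were in 29 of all 291 genes called higher with a window (9.97%), 19 of 389 called lower (4.88%) and 334 of 8237 measured genes (4.05%). In all windows of the table the share was 3.44%. Gbp2, a guanylate-binding GTPase, was at 13.6 FPKM against 48.8 and 55.4 FPKM.

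Of the 4 interferon receptor chains Ifngr1, Ifngr2, Ifnar1 and Ifnar2, Ifngr1 alone was called, lower at 131 FPKM against 41.1 and 38.1 FPKM. Ifngr2, the other chain of the interferon gamma receptor, was at 66.7 FPKM against 41.8 and 42.1 FPKM. Of the type I receptor chains, Ifnar1 was at 27.3 FPKM against 16.4 and 15.8 FPKM and Ifnar2 at 97.3 FPKM against 47.5 and 50.4 FPKM. Few antigen presentation genes were called, with 2 of 23 higher and 1 lower, beside 3.52% and 4.82% of all genes. Their median of 0.03 changes sign with scaling. H2-Q7, a non-classical class I gene, was higher at 5.05 FPKM against 68.2 and 57.1 FPKM, although reads may be divided among near-identical H2 genes. The classical class I partner B2m was at 1750.0 FPKM against 2441 and 2569 FPKM and not called. Ciita, the master regulator of class II genes, was lower at 15.3 FPKM against 5.20 and 4.83 FPKM, and its target Cd74 was at 1006 FPKM against 603 and 498, below the vector without a call.

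Chemokine genes were mostly higher with BCR/ABL. Of 19 measured, 10 were called higher and 1 lower, with a median of 1.41. Ccl24, an attractant of eosinophils, was at 0.431 FPKM against 41.7 and 40.2 FPKM, higher by 4.85, and Ccl7, an attractant of monocytes, was at 3.82 FPKM against 135 and 164, higher by 4.82. Cxcl3, an attractant of neutrophils, was at 1.18 FPKM against 42.7 and 45.6 FPKM. Of the ligands of CCR4, Ccl22 was at 5.98 FPKM against 98.1 and 92.1 FPKM and Ccl17 at 0.656 FPKM against 18.1 and 16.4 FPKM. Ccl2, the main ligand of CCR2, was at 20.8 FPKM against 163 and 184 FPKM, while Ccr2 itself was among the 15 named genes furthest below the vector, at 242 FPKM against 23.9 and 27.0. Ligand and receptor thus stood in opposite directions in the same libraries. The exception among chemokines was Cxcl16, a membrane-bound ligand, at 29.1 FPKM against 10.2 and 10.6 FPKM. Ccl3, a ligand of CCR1, was at 107 FPKM against 111 and 111 FPKM and did not differ by the rule.

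Other secreted factors went both ways, with 6 of 25 higher and 7 lower. Il1rn, the interleukin 1 receptor antagonist, was at 6.66 FPKM against 56.0 and 65.8 FPKM and Il1a, the alpha form of the cytokine it blocks, at 0.543 FPKM against 9.85 and 13.7. Il1b, the beta form, was lower at 49.4 FPKM against 16.6 and 19.1 FPKM. Il6 was at 8.01 FPKM against 28.7 and 30.6 FPKM and Csf1, the macrophage growth factor, at 13.1 FPKM against 29.8 and 31.8; Csf1 loses its call under equal totals. Il12a, a subunit of interleukins 12 and 35, was lower at 11.6 FPKM against 1.06 and 1.36 FPKM, and Il18, an inducer of interferon gamma, at 11.04 FPKM against 2.39 and 2.23. Il3, Csf2 and Csf3, growth factors of myeloid cells, were all under 1 FPKM in the 3 libraries.

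Of 32 cytokine receptor genes 13 were lower, 3 were higher and 16 were not called, with a median of -0.65. Flt3, the receptor for a cytokine present in the culture, was at 40.9 FPKM against 1.95 and 2.00 FPKM, a difference of -3.80. Csf3r, the receptor of the granulocyte growth factor, was at 53.1 FPKM against 8.32 and 7.82 FPKM, and Csf1r, that of the macrophage growth factor, at 266 FPKM against 69.3 and 63.6. Il6st, the shared gp130 chain, was at 59.8 FPKM against 12.9 and 15.5 FPKM, and Il3ra, the specific chain of the interleukin 3 receptor, at 24.4 FPKM against 8.78 and 7.10. Il6ra, the binding chain of the interleukin 6 receptor, was at 32.4 FPKM against 9.94 and 8.77 FPKM. With Kit, the receptor of stem cell factor, at least 1 receptor chain for each of the 4 cytokines of the culture was thus below the vector library. Csf2rb, the chain shared by the interleukin 3, interleukin 5 and GM-CSF receptors, was above the vector at 229 FPKM against 333 and 308 FPKM. It was not called, and its reads may be shared with Csf2rb2. Tnfrsf9 (4-1BB), a costimulatory receptor best known from T cells, was the furthest above the vector among receptors, at 0.817 FPKM against 61.9 and 58.3 FPKM, higher by 5.03. Il1r2, a decoy receptor for interleukin 1, was higher at 31.4 FPKM against 139 and 129.6 FPKM.

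**Figure D3:**
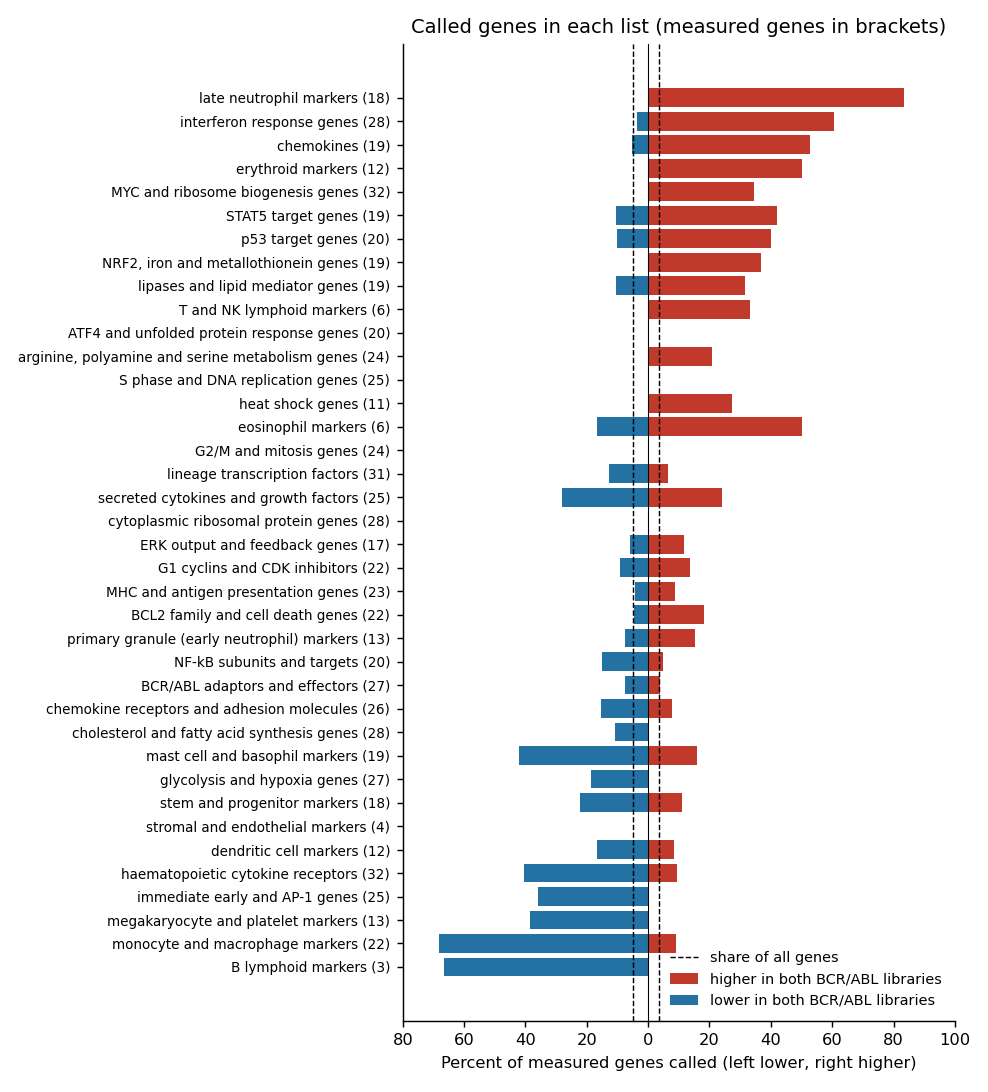
Share of the genes in each list that were called lower (blue, to the left) and higher (red, to the right) with BCR/ABL, in percent of the genes that passed the filter, whose number is in brackets. Dashed lines mark the shares over all genes, 4.82% lower and 3.52% higher, and lists are ordered by their median difference.

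Surface and adhesion genes included Thy1, a glycoprotein of T cells and some progenitors, at 0.526 FPKM against 52.8 and 44.9 FPKM, higher by 4.91. The T cell genes Cd3e, Cd3d and Cd3g were close to 0, as given above, and Cd7, another lymphoid surface gene, was lower at 44.3 FPKM against 1.09 and 0.878 FPKM. Among integrin genes Itgb7 was lower at 123 FPKM against 31.8 and 26.9 FPKM, as were Itga4, its partner in homing to the gut, at 41.0 FPKM against 14.1 and 15.6, and Itga6, a laminin receptor chain, at 47.4 FPKM against 18.1 and 19.0, while Itgb2l, a gene related to Itgb2 and named after its value was seen, was higher at 2.35 FPKM against 21.7 and 16.9 FPKM. The leukocyte integrin gene Itgam was nearly level at 175 FPKM against 161 and 166 FPKM. Ccr7, which guides cells to lymph nodes, was higher at 9.42 FPKM against 41.0 and 35.7 FPKM.

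Arg1 and Lipg were the top-ranked named genes called higher outside the stefin and globin genes. Arg1, which splits arginine into ornithine and urea, was at 1.73 FPKM against 215 and 237 FPKM, higher by 6.31. Lipg, a secreted endothelial-type lipase, was at 0.482 FPKM against 113 and 101 FPKM, higher by 6.11, with a vector level near 0. The step after arginase followed the same direction: Odc1, which turns ornithine into putrescine, was at 46.7 FPKM against 201 and 198 FPKM, and Srm, the spermidine synthase, at 44.7 FPKM against 141 and 107. The cationic amino acid transporter Slc7a2 was at 0.309 FPKM against 7.25 and 8.57 FPKM. In all, 5 of 24 arginine, polyamine and serine genes were higher and 0 lower. Phgdh, the entry enzyme of serine synthesis, was not called at 103 FPKM against 133 and 97.1 FPKM.

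Among lipid genes 6 of 19 were higher and 2 lower. Cd36, a fatty acid receptor, was at 5.58 FPKM against 27.0 and 35.3 FPKM, Mgll, the monoglyceride lipase, at 1.66 FPKM against 7.21 and 6.37, and Ptgs1, the constitutive cyclooxygenase, at 28.1 FPKM against 77.1 and 71.6. Lta4h, which makes a leukotriene attractant of neutrophils, loses its call under equal totals. Hpgds, the prostaglandin D synthase of mast cells, was lower at 17.5 FPKM against 3.77 and 4.15 FPKM. Lipoprotein genes were among the furthest below the vector: Apoe was at 384 FPKM against 11.2 and 8.48 FPKM, a difference of -4.98, Apoc2 at 39.8 FPKM against 1.76 and 1.52 and Pltp, the phospholipid transfer protein, at 36.3 FPKM against 1.19 and 0.689. Abca1, the cholesterol exporter that loads such particles, was lower at 15.8 FPKM against 2.50 and 3.00 FPKM, and Scd2, a stearoyl desaturase, at 455 FPKM against 161 and 159. No gene of the cholesterol and fatty acid list was higher, and 3 of 28 were lower, beside 3.52% and 4.82% of all genes.

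Among genes of glycolysis and hypoxia 5 of 27 were lower and 0 higher. The glycolytic enzyme genes Gapdh, at 1389 FPKM against 1781 and 1442 FPKM, and Ldha, at 643 FPKM against 813 and 714 FPKM, were not called. The 5 lower genes were Aldoc, Ankrd37, Pdk1, Vegfa and Bnip3, and 22 genes of the list were not called. Aldoc was at 31.3 FPKM against 6.25 and 5.92 FPKM, Ankrd37 at 19.3 FPKM against 3.04 and 3.78 and Pdk1 at 27.6 FPKM against 11.6 and 10.8. Vegfa was at 42.2 FPKM against 18.3 and 15.9 FPKM and Bnip3 at 71.8 FPKM against 31.8 and 31.5. Hif1a, which encodes a subunit of the hypoxia factor HIF1, was above the vector at 34.5 FPKM against 61.5 and 65.3 FPKM without reaching the threshold. Cox6a2, the muscle-type form of a cytochrome oxidase subunit, was among the genes furthest below the vector at 62.1 FPKM against 1.29 and 0.574 FPKM.

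Of 32 genes of MYC and ribosome biogenesis 11 were higher by the rule and 30 lay above the vector on average, with a median of 0.82. Ncl (nucleolin) was at 93.8 FPKM against 243 and 270.1 FPKM, Nop58, a core protein of small nucleolar ribonucleoproteins, at 47.5 FPKM against 114 and 127, and Npm1 (nucleophosmin) at 483 FPKM against 1082 and 1194. Myc was not called, at 51.5 FPKM against 80.9 and 73.9 FPKM, while Mycn was higher at 1.27 FPKM against 9.71 and 7.26. Many of these genes sit near the threshold, and Npm1, Ddx21, Wdr43, Gnl3, Nolc1, Dkc1 and Rrp9 lose their calls under equal totals. Cytoplasmic ribosomal protein genes were level, with 0 of 28 called and a median of 0.08 whose sign turns with scaling.

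Cell cycle genes differed less. None of the 25 S phase genes and none of the 24 G2/M genes was called, although 23 and 21 of them lay above the vector, with medians of 0.45 and 0.36. Rrm2, the small subunit of ribonucleotide reductase, was at 81.0 FPKM against 165 and 157 FPKM and Ccnb1 (cyclin B1) at 49.7 FPKM against 98.1 and 102, both just short of the threshold, and the proliferation marker Mki67 was level at 79.8 FPKM against 79.1 and 91.7. Cyclin-dependent kinase inhibitors were split: Cdkn1a (p21) was higher at 55.2 FPKM against 198 and 176 FPKM and Cdkn1b (p27) lower at 30.1 FPKM against 11.8 and 11.4. The D cyclins were split in the same way, as given above, with Ccnd2 higher and Ccnd1 lower.

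Targets of p53 were higher in 8 of 20 cases and lower in 2. Phlda3, an inhibitor of AKT, was at 1.57 FPKM against 11.6 and 9.62 FPKM, Ccng1 (cyclin G1) at 33.4 FPKM against 99.2 and 102 and Mdm2, which degrades p53, at 24.9 FPKM against 55.9 and 60.2. Sesn1, a stress-induced brake on mTOR, was lower at 29.3 FPKM against 7.97 and 8.06 FPKM. Bbc3, the death gene PUMA, was at 6.75 FPKM against 6.72 and 3.82 FPKM and not called. The calls of Mdm2, Plk2 and Plk3 are lost under equal totals.

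Of 22 genes of the BCL2 family and cell death 4 were higher, all of which encode survival proteins, and 1 was lower. Bcl2a1a, Bcl2a1b and Bcl2a1d, near-identical copies of A1 among which reads may be divided, were all higher. Bcl2a1a was at 0.709 FPKM against 24.6 and 24.6 FPKM, Bcl2a1b at 14.2 FPKM against 92.7 and 106 FPKM and Bcl2a1d at 4.91 FPKM against 31.9 and 39.0 FPKM. Bcl2l1 is given above among STAT5 targets. Bmf, a death-promoting BH3-only gene, was lower at 10.9 FPKM against 2.66 and 2.44 FPKM, and Bcl2l11 (BIM) was at 22.1 FPKM against 13.4 and 13.9, short of the threshold. The survival genes Mcl1, at 181 FPKM against 119 and 126 FPKM, and Bcl2, at 10.7 FPKM against 5.81 and 6.02 FPKM, were below the vector without being called.

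Of 19 NRF2 target, iron and metallothionein genes 7 were higher, 0 lower and 12 not called. Hmox1 (haem oxygenase) was at 55.2 FPKM against 389 and 374 FPKM, Slc7a11, the cystine importer, at 2.30 FPKM against 19.3 and 21.1 and Nqo1, a quinone reductase, at 4.11 FPKM against 27.0 and 24.8. Gclm, Srxn1 and Txnrd1, further textbook NRF2 targets, were higher by 1.55, 1.36 and 1.24. The ferritin genes Fth1 and Ftl1 were above the vector and not called. Of 11 heat shock genes 3 were higher. Of the mitochondrial chaperonin pair, Hspd1 was at 134 FPKM against 356 and 369.5 FPKM and Hspe1 at 124 FPKM against 281 and 263 FPKM, and the cytosolic chaperone gene Hsp90aa1 was at 219.7 FPKM against 504 and 558 FPKM. Hspe1 and Hsp90aa1 lose their calls under equal totals. None of the 20 genes of the ATF4 and unfolded protein responses was called, with a median of 0.49. Among 20 NF-kB genes 1 was higher and 3 were lower, beside 3.52% and 4.82% of all genes. The lower ones included the co-activators Bcl3 at 29.3 FPKM against 10.7 and 10.6 FPKM and Nfkbiz at 9.95 FPKM against 2.63 and 2.64.

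Late neutrophil genes were higher in 15 of 18 cases and lower in 0, with a median of 3.39. Summed over the list, the vector library held 3036 FPKM and the BCR/ABL libraries 26674 and 28362, much of it from S100a8 and S100a9, the calprotectin subunits. S100a8 was at 1178 FPKM against 11121 and 12712 FPKM and S100a9 at 867 FPKM against 8255 and 8090.2. Ngp (neutrophilic granule protein) was at 151 FPKM against 2228 and 2095 FPKM, Camp (cathelicidin) at 9.81 FPKM against 198 and 171, Ltf (lactoferrin) at 24.2 FPKM against 320.0 and 277 and Lcn2 (lipocalin 2) at 109 FPKM against 968 and 846. Other late genes did not share this: Mmp8, the neutrophil collagenase, was at 245 FPKM against 302 and 351 FPKM, Itgam was level as given above, and Cxcr2, the chemokine receptor of mature neutrophils, was at 11.5 FPKM against 9.17 and 9.62.

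The stefin A genes, which encode cysteine protease inhibitors and lie together on chromosome 16, were far above the vector, and Stfa2 ranked first among the named genes called higher. It was at 1.39 FPKM against 288 and 397 FPKM, higher by 6.92, and its neighbour BC100530 was at 3.64 FPKM against 794 and 999.8 FPKM. Stfa3 was at 1.12 FPKM against 109.8 and 137 FPKM, Stfa1 at 2.44 FPKM against 220.3 and 243 FPKM and Stfa2l1 at 2.43 FPKM against 219 and 303 FPKM. These copies are alike, so reads may be divided among them. For each, the second BCR/ABL library was above the first. Cd177, a surface protein of neutrophils, was at 2.72 FPKM against 115 and 93.3 FPKM, Ceacam10, a carcinoembryonic-antigen-related gene, at 0.237 FPKM against 34.0 and 38.4 and Slfn4, a myeloid Schlafen gene, at 1.77 FPKM against 61.6 and 71.8.

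Primary granule genes, which are used earlier in neutrophil development, were mostly not called. Of 13 measured, 2 were higher and 1 lower, beside 3.52% and 4.82% of all genes. Mpo (myeloperoxidase) was lower at 637 FPKM against 234 and 177 FPKM, while Elane (neutrophil elastase) was at 253 FPKM against 290.2 and 188 and Prtn3 (proteinase 3) at 422 FPKM against 423 and 309, and for both the vector value lay between the BCR/ABL values. Cebpe, the factor that drives the switch from primary to specific granules, was higher at 6.42 FPKM against 27.5 and 19.9 FPKM, and Ms4a3, a marker of granulocyte-monocyte progenitors, at 105 FPKM against 351 and 379. Cebpa, which acts earlier, was at 50.8 FPKM against 30.5 and 27.4 FPKM and not called.

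**Figure D4:**
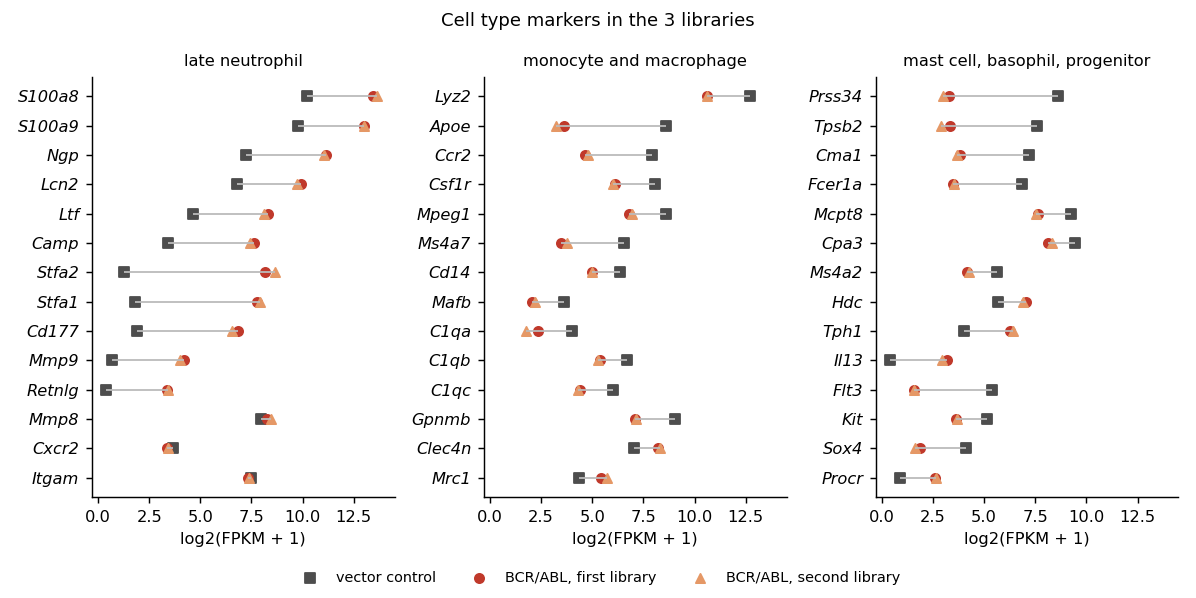
Levels of marker genes of late neutrophils, of monocytes and macrophages, and of mast cells, basophils and progenitors in the vector library (square) and in the first (circle) and second (triangle) BCR/ABL library, as log2(FPKM + 1). Of the neutrophil markers drawn, all but Mmp8, Cxcr2 and Itgam were called higher, and of the monocyte and macrophage markers drawn, all but Clec4n and Mrc1 were called lower.

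Monocyte and macrophage genes were lower in 15 of 22 cases and higher in 2, with a median of -1.48. Summed over the list, the vector library held 10397 FPKM and the BCR/ABL libraries 3865 and 3905. Lyz2, given above, made up much of this sum, and its reads may be shared with its copy Lyz1. Mpeg1 (perforin 2) was at 389 FPKM against 111 and 124 FPKM, Gpnmb, a glycoprotein of macrophages, at 522 FPKM against 137 and 140.2, and Ms4a7, a marker of mature macrophages, at 91.8 FPKM against 10.1 and 12.7. The complement genes C1qa, C1qb and C1qc were lower, with differences of -1.64, -1.33 and -1.64. Ly6c2, a marker of classical monocytes, was above the vector at 611 FPKM against 1203 and 1174 FPKM and not called. Clec4n (dectin 2) was higher at 132 FPKM against 291 and 318 FPKM and Mrc1, the mannose receptor, at 19.5 FPKM against 42.5 and 52.0, and both lose their calls under equal totals. Off the list, the 15 named genes furthest below the vector held F13a1, a clotting factor of monocytes, at 242 FPKM against 25.6 and 27.1 FPKM. They also held Sepp1, the selenoprotein P gene, at 168 FPKM against 16.8 and 17.5, and Saa3, an acute phase protein of macrophages, at 820.2 FPKM against 86.7 and 90.0. F13a1, Sepp1 and Saa3 were picked on the lower side alone, so they do not show the direction of monocyte and macrophage genes off the list.

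Mast cell and basophil genes were lower in 8 of 19 cases and higher in 3. Prss34, a basophil protease, ranked first among the named genes called lower, at 393 FPKM against 8.74 and 6.91 FPKM, a difference of -5.34. Tpsb2 (a mast cell tryptase) was at 192 FPKM against 9.03 and 6.48 FPKM, Cma1 (chymase) at 144 FPKM against 13.0 and 11.6 and Fcer1a, the IgE-binding chain of the high-affinity receptor, at 113 FPKM against 9.99 and 10.7. Mcpt8, another basophil protease, was lower and still abundant at 614 FPKM against 196 and 182 FPKM, and Cpa3, the mast cell carboxypeptidase, at 684 FPKM against 276 and 313. Hdc, which makes histamine, was higher at 49.4 FPKM against 132 and 119 FPKM, and so was Tph1, which starts serotonin synthesis, at 15.3 FPKM against 74.9 and 84.4, while the prostaglandin D synthase gene Hpgds was lower as given above. Il13, a cytokine of these cells, was also higher at 0.317 FPKM against 8.19 and 6.56 FPKM, and Gata2, which both lineages need, was not called at 62.7 FPKM against 57.6 and 44.1.

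Erythroid genes were higher in 6 of 12 cases and lower in 0. Of the globin genes, whose copies are near-identical, Hbb-bt was at 1.23 FPKM against 187 and 186 FPKM, Hbb-b1 at 0.262 FPKM against 64.7 and 61.4 FPKM and Hba-a2 at 0.654 FPKM against 22.4 and 19.96 FPKM. Globin values varied between duplicates elsewhere in the series: Hba-a2 was at 0.377 and 16.6 FPKM in the duplicates given DFC+BCI, the drugs against FOS and Dusp1, a log2 gap of 3.68 that exceeds its smaller difference from the vector of 3.66, and Hbb-b1 was at 8.97 and 62.8 FPKM in those given imatinib. Of the carbonic anhydrases of red cells, Car2 was at 8.32 FPKM against 51.3 and 51.1 FPKM and Car1 at 0.405 FPKM against 6.59 and 6.79 FPKM. The call of Cd24a, a surface glycoprotein of red cell precursors and other blood cells, is lost under equal totals. Defining genes of red cell precursors were low: Klf1 was at 0.679 FPKM against 3.19 and 2.86 FPKM and Alas2, the first enzyme of haem synthesis, at 0.0646 FPKM against 0.342 and 0.341. Gata1, the shared factor of red cells, platelets and mast cells, was at 11.6 FPKM against 16.9 and 14.7 FPKM and not called. Among megakaryocyte and platelet genes 5 of 13 were lower and 0 higher, such as Gp1ba, a receptor for von Willebrand factor, at 19.1 FPKM against 2.52 and 2.10 FPKM, and Vwf itself at 19.8 FPKM against 3.55 and 2.85. Pf4, the platelet chemokine, was not called at 409 FPKM against 653 and 602 FPKM.

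Of 18 stem and progenitor markers 4 were lower, 2 were higher and 12 were not called. Besides Flt3, Kit and Cd34, the factor Sox4 was lower at 16.4 FPKM against 2.62 and 2.04 FPKM. Ly6a, which encodes the stem cell antigen Sca-1, was nearly level at 449 FPKM against 481 and 499.7 FPKM, and of the self-renewal partners Meis1 was at 5.40 FPKM against 7.66 and 7.68 FPKM and Hoxa9 at 6.32 FPKM against 5.45 and 5.16 FPKM, neither of them called. Procr, a surface marker of stem cells, was higher at 0.840 FPKM against 5.10 and 5.22 FPKM. Among eosinophil genes Prg2, a granule protein, was lower at 70.5 FPKM against 14.8 and 15.1 FPKM while the ribonuclease Ear2 was higher at 0.364 FPKM against 5.80 and 5.59, with reads possibly divided among Ear genes. Of 12 dendritic cell genes 1 was higher and 2 were lower, beside 3.52% and 4.82% of all genes. The lower ones included Tcf4, a factor of plasmacytoid cells, at 16.4 FPKM against 4.57 and 5.03 FPKM. Granzyme B (Gzmb), a protease of cytotoxic cells, was higher at 48.5 FPKM against 352 and 343 FPKM, whereas Nkg7 was level at 19.1 FPKM against 19.4 and 16.2.

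These lineage markers differed between the same 3 libraries as the signalling, interferon, chemokine and metabolic genes above. Csf1r, Ccr2, Apoe, Flt3 and Kit stand on lineage lists and on functional lists at once, and 80 of the listed genes are on 2 or more lists. What part cell composition had in any of those groups was not tested.

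Called genes tended to adjoin others called in the same direction. Positions from GENCODE M21 (GRCm38) were found for 10713 of the genes. Of 375 genes called higher with a position, 90 (24%) had a measured neighbour that was also called higher, compared with 6.08% of genes not called higher. Of 515 called lower, 106 (20.6%) had a neighbour also called lower, compared with 8.70% of the others. The groups of 3 or more called higher included Ccl2, Ccl7, Ccl12 and Ccl8 at chr11:82035571-82116799, S100a6, S100a8 and S100a9 at chr3:90612882-90695721, and BC100530, Stfa2 and Stfa3 at chr16:36359382-36455392. Those called lower included Prss34, Tpsb2, Tpsg1 and Lmf1 at chr17:25298394-25662826 and the 3 C1q genes at chr4:136880129-136898803. Most of the groups named here are families of related genes. Other groups are not, such as Coq10b, Hspd1 and Hspe1 called higher and Pld2, Mink1 and Gp1ba called lower. What part gene families had in the shares of called neighbours was not tested.

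The other 8 libraries of the series also carry BCR/ABL, and the values of a few called genes in them are given here. These libraries share the vector library as their reference, so their distances from it are not independent of those above. Thy1 lay between 17.7 and 44.0 FPKM in these 8 libraries, Tnfrsf9 between 22.9 and 58.2, and Arg1 between 196 and 427. All were above the vector values of 0.526, 0.817 and 1.73 FPKM. Flt3 lay between 1.25 and 2.37 FPKM and Apoe between 7.80 and 31.4, all below the vector values of 40.9 and 384. These genes kept their side of the vector library in every library carrying the fusion. They were picked among the named genes furthest from it, so this was likely beforehand. The share of all called genes that did so was not computed.

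Others did not keep their level. Cish was at 13.7 and 16.4 FPKM with imatinib, the BCR/ABL kinase inhibitor, for 4 h, at 132 and 139 with DFC+BCI, the drugs given against FOS and Dusp1, and at 66.2 and 54.1 with all 3 drugs. The imatinib values lay between the vector and the untreated values. Id1 was at 12.2 and 17.2 FPKM with imatinib, on both sides of the vector value of 14.3. Fos was at 6.79 and 7.42 FPKM with imatinib and at 29.1 and 30.9 with DFC+BCI, in both cases below the vector value of 125. Zfp36, in contrast, was at 324 and 321 FPKM with DFC+BCI, above the vector value of 212. Where c-Fos and Dusp1 are labelled as deleted, each condition has a lone library. Fos was still listed there, at 21.6 FPKM without drug and 15.9 FPKM with imatinib, above the untreated 5.09 and 4.81 FPKM. Iigp1 was at 3.06 FPKM without drug and 1.66 FPKM with imatinib in those libraries, nearer to the vector value of 1.00 than to the untreated BCR/ABL values. Prss34 was at 0.251 and 0.266 FPKM in those libraries, below all others.

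**Figure D5:**
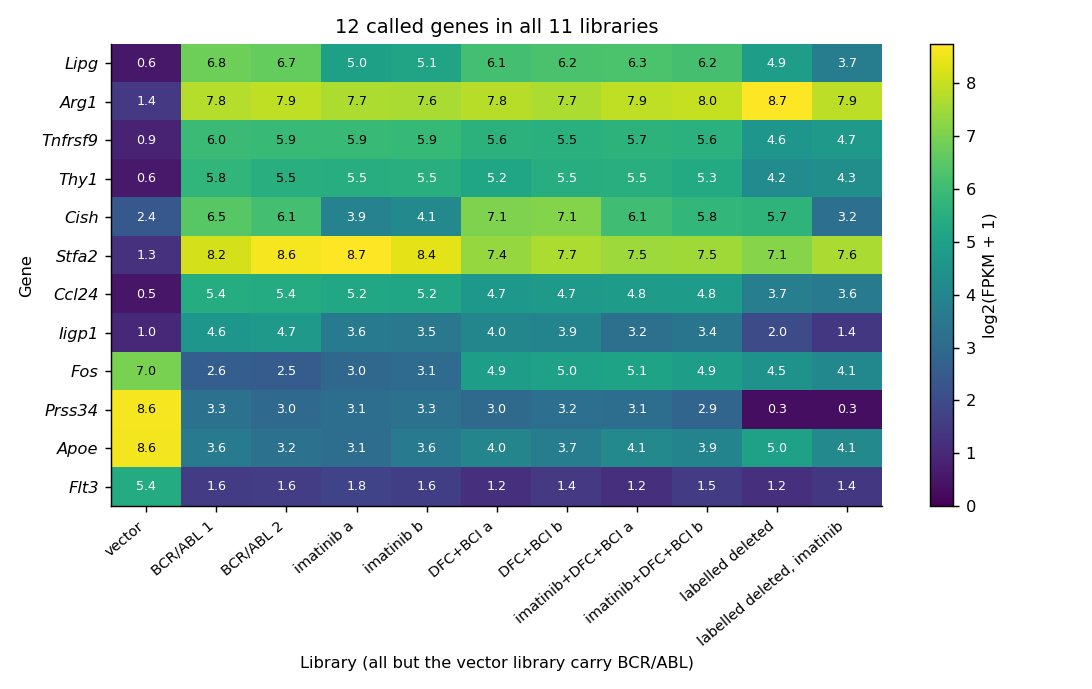
Levels of 12 called genes (rows) in all 11 libraries (columns), with log2(FPKM + 1) as colour and number in each cell. Arg1, Tnfrsf9 and Thy1 exceed the vector library in all 10 BCR/ABL libraries, Flt3 and Apoe are below it in all 10, and Cish is lower in the imatinib libraries than in the untreated ones.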

How the data were processed

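Per the submitters' processing notes, the authors used TopHat and Cufflinks with the mm10 genome; versions are not named. No unit stands in the header, and the deposited values were taken as FPKM from the tool and from their form. Without read counts the sequencing depth is unknown, and no counting interval is given. Total RNA was made into stranded mRNA libraries, per the labels' protocols. Whether the estimates used strand is not stated. Genes with near-identical copies may have had reads divided among them. The symbols of 27 rows read as dates, and 17 of these rows passed the filter unnamed.

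Values were used as deposited, with 1 FPKM added before log2, in Python 3.11.15 with numpy 2.4.6 and pandas 2.3.3. The table's 2 untreated BCR/ABL columns share a header and were numbered in their order. No test across genes was made. The genes named are Fos, Dusp1, Bcr and Abl1, up to 15 per direction by the smaller difference, up to 6 called members of each list per direction, and members not called that carry a list's role; a few genes that the rule takes are not reported here. The comparison, its 39 gene lists and the motifs were chosen with earlier results of these data known. The alternatives tried were other pseudocounts, filters, scalings, thresholds and leaving out each BCR/ABL library.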

Additional observations from a re-analysis of the deposited data

How the results depend on the processing

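None of the 218 called genes that the naming rule takes turned direction under any alternative tried. Since the rule asks for a difference of at least 1 in both BCR/ABL libraries, these alternatives could hardly turn one. Of the 218, 197 kept their call under the 3 scalings, a pseudocount of 0.1 and leaving out either BCR/ABL library. With a pseudocount of 5 FPKM, 249 genes were higher and 265 lower, since it shrinks low genes. A threshold of 0.5 on the log2 scale gave 1342 higher and 1424 lower, and a threshold of 2 gave 122 and 79. Leaving out a BCR/ABL library asks for agreement with 1 library only, and gave 430 to 460 higher and 569 to 698 lower. Under equal totals 281 genes were higher and 708 lower. Of the list medians, those of ERK output, G1, antigen presentation and cytoplasmic ribosomal protein genes changed sign under a scaling, and those of lineage transcription factors and eosinophil markers when genes had to reach 1 FPKM in all 3 libraries. No paired analysis was possible because the vector control is 1 library and the comparison rests on no test. The lone vector library and the unknown read depth limit every value here.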

Other observations

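The filter left out 42 rows with at least 5 FPKM in the vector library and under 1 FPKM in both BCR/ABL libraries, 34 of them named genes. The opposite pattern, under 1 FPKM in the vector and at least 5 FPKM in both BCR/ABL libraries, was seen in 43 rows, which passed the filter. Cx3cr1, the fractalkine receptor of monocytes, was at 30.1 FPKM in the vector library and at 0.281 and 0.314 FPKM in the BCR/ABL libraries. Dntt, the terminal transferase of early lymphoid cells, was at 16.4 FPKM in the vector library, listed at 0 in the first BCR/ABL library and at 0.0831 FPKM in the second. Siglech, a marker of plasmacytoid dendritic cells, was at 8.80 FPKM in the vector library and listed at 0 in both others. Mcpt4 and Mcpt2, mast cell proteases, were at 16.0 and 13.4 FPKM in the vector library and under 0.5 FPKM with BCR/ABL. Clec1b and Gp6, platelet receptors, were at 17.5 and 7.20 FPKM in the vector library and at most 0.834 FPKM with BCR/ABL. These genes were selected on their values, so they are given as a description.

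Xist, the RNA of the inactive X chromosome, was at 85.0 FPKM in the vector library and at 47.4 and 61.1 FPKM in the BCR/ABL libraries. The Y-linked genes Ddx3y, Kdm5d and Uty were listed at 0 in all 3 libraries, and Eif2s3y, also Y-linked, was listed at 0 in the vector library and at 0.0252 and 0 FPKM in the BCR/ABL libraries.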
